A study of Homo sapiens with 14 samples.

Results

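AsPC-1 is an established human pancreatic adenocarcinoma cell line, and total RNA of serum-starved AsPC-1 cells was sequenced here to compare transcript levels. The comparison described here set 4 libraries taken early after ligand, at 1 and 5 h of angiogenin (ANG, 1 µg/ml) and at 1 and 5 h of epidermal growth factor (EGF, 50 ng/ml), against 3 others, namely the untreated mock, 24 h of ANG and 24 h of EGF. These are 7 of the 14 libraries of the series, the other 7 being the same conditions in the pancreatic cancer line Panc-1. Each condition was 1 library, so the 4 and the 3 libraries of a side are different conditions and not replicates, and the p-values below measure only the spread between these libraries. The time at which mock was collected is not given in the labels, and how long or in which dishes the cells had been starved cannot be told apart from ligand and time. The sides were chosen with earlier results on how these libraries group in view, so the number of genes that differ between them is a description of that grouping.

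ANG is a ribonuclease secreted by many tissues, and according to the title of the series it binds EGFR, the receptor of EGF. Activated EGFR signals through the RAS, ERK and PI3 kinase pathways, which induce immediate-early transcription factors within an hour, then growth and cell cycle genes, and which restrain FOXO factors. Replicating cells make histone mRNA almost solely during S phase, and the kinases, cyclins and spindle proteins of mitosis are transcribed from late S phase to G2, so these transcripts report how many cells of a population are cycling.

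Values are RPKM, reads per kilobase of transcript per M mapped reads, and differences are early minus mock and 24 h on the log2(RPKM + 1) scale, with the standard error (SE) and the adjusted p-value of limma over all genes tested. Estimated depth was 18.8 to 23.8 M reads in the 7 libraries, 18.8 to 22.8 M on the early side and 19.9 to 23.8 M on the other, and 11192 to 11786 genes reached 1 RPKM. The Euclidean distance between libraries over the genes tested was 22.7 to 47.3 within the early side, 27.5 to 56.5 within the other side and 70.7 to 106 between them. The share of reads in short genes (under 400 bp) was 5.29 to 17.2% early and 6.03 to 13.5% otherwise, with no separation of the sides. Markers of pancreatic adenocarcinoma epithelium fitted the label, since 12 of 12 reached 1 RPKM in at least 1 library of each side, as they also did in Panc-1. Their summed level was 3380 to 4255 RPKM early and 3541 to 4262 RPKM otherwise. Single markers shifted in opposite directions within these sums. CDH1 (66.6 to 89.3 against 21.3 to 23.4 RPKM) and S100P (320 to 421 against 84.2 to 112 RPKM) were higher early, and CEACAM6 (580 to 669 against 886 to 1030 RPKM) was lower. Of 6 mesenchymal markers 2, VIM and ZEB1, reached 1 RPKM. Of 8 leukocyte markers 3 reached 1 RPKM, and their sum was 171 to 189 RPKM early against 245 to 546 RPKM. The defining markers PTPRC, CD3E and MS4A1 were listed at 0 in all 7 libraries, and the sums rested on LYZ (93.8 to 107 against 199 to 503 RPKM) and CD68 (66.4 to 92.9 against 39.4 to 45.1 RPKM). The part of these shifts in the results below was not tested. Of 8 fibroblast markers only LUM reached 1 RPKM (26.5 to 30.7 against 32.9 to 46.3 RPKM), while COL1A1 stayed at 0.01 RPKM or less.

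Of 23040 genes listed, 12024 reached 1 RPKM in at least 2 of the 7 libraries and were tested, and 6343 of them (52.8%) passed the threshold of 0.05. Of these, 2297 genes (19.1%) were higher and 4046 (33.6%) lower early. Calls with at least a 2-fold difference numbered 375 higher (3.12%) and 1145 lower (9.52%). The lowest early value lay above the highest of mock and 24 h in 2535 genes (21.1%), and the highest early value lay below the lowest of the other side in 4078 (33.9%). The median difference of all genes tested was -0.12. After subtracting from each library its median over the genes tested (centred libraries), 3481 genes (29.0%) were higher and 3215 (26.7%) lower, so the share of calls that were higher went from 36.2% to 52.0%, while 3 of the 2-fold calls were lost or turned. List counts below should be read against these shares, and the lists were described, not tested. Fell and rose below mean lower and higher early than on the other side, not an order in time.

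The histone genes fell the most. Of 58 replication-dependent histone symbols 56 were listed and tested, and 56 of 56 were lower early with sides that did not overlap, at a median difference of -3.87 against -0.12 for all genes tested (33.6% of which were lower). Their median level was 213, 243 and 228 RPKM in mock, 24 h of ANG and 24 h of EGF, and 13.7, 14.9, 18.6 and 9.85 RPKM after 1 and 5 h of ANG and 1 and 5 h of EGF. The 15 largest falls among genes of at least 400 bp were all histones, from -4.30 for HIST1H2BF to -5.32 for HIST1H1D.

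HIST1H1D, which encodes the linker histone H1.3 (hg19, chromosome 6, 26234440 to 26235216), was at 356 RPKM in mock, 340 after 24 h of ANG and 364 after 24 h of EGF, and at 8.99, 7.04, 10.8 and 5.44 RPKM after 1 and 5 h of ANG and 1 and 5 h of EGF. The 3 high libraries lay close together. The mean RPKM of the 4 early ones was 43.8-fold lower, and the difference of the mean log2(RPKM + 1) levels was -5.32 ± 0.19 (SE; limma adjusted p = 2.45e-06). The core histone gene HIST1H3C (chromosome 6, 26045639 to 26046097) was at 1565, 1711 and 1525 RPKM in mock, 24 h of ANG and 24 h of EGF against 74.6, 69.2, 90.9 and 43.1 RPKM in the 4 early libraries (-4.55 ± 0.23, limma adjusted p = 7.50e-06). For HIST1H3H (chromosome 6, 27777842 to 27778314) the levels were 1184, 1231 and 1002 RPKM against 37.7, 37.5, 42.7 and 13.3 RPKM (-5.19 ± 0.36, limma adjusted p = 2.81e-05). In all 3 genes the 5 h EGF library was the lowest and the 1 h EGF library the highest of the early side. In bulk RNA a smaller share of cells in S phase and less RNA per cell cannot be told apart. Histone genes are near-identical copies of one another, so the split of reads between members is uncertain, and whether RNA was selected by poly(A) tail, which most histone mRNA lacks, is not given in the sources used here.

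Genes of G2 and mitosis fell in the same libraries. All 40 listed and tested members of the G2/M list were lower early and in 40 of 40 the sides did not overlap, at a median difference of -2.92. The median level of the list was 40.7, 38.0 and 29.5 RPKM in mock, 24 h of ANG and 24 h of EGF, and 5.12, 4.25, 6.96 and 2.63 RPKM after 1 and 5 h of ANG and 1 and 5 h of EGF. TOP2A, the topoisomerase that untangles chromosomes (chromosome 17, 38544773 to 38574202), was at 129, 112 and 73.9 RPKM in mock, 24 h of ANG and 24 h of EGF, and at 8.0, 6.85, 10.7 and 4.07 RPKM early, a difference of -3.68 ± 0.29 (limma adjusted p = 4.54e-05). The 24 h EGF library was the lowest of its side and still far above every early library. MKI67, whose protein is the usual histological marker of cycling cells (chromosome 10, 129894925 to 129924468), was at 64.4, 60.2 and 39.9 RPKM against 6.27, 4.51, 9.76 and 3.18 RPKM (-3.07 ± 0.31, limma adjusted p = 0.000135).

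Others of the list followed the same order of libraries. CCNB1, the cyclin that activates the mitotic kinase, was at 125, 102 and 92.2 RPKM against 23.2, 17.3, 34.0 and 11.1 RPKM (-2.35 ± 0.31, limma adjusted p = 0.000465). HMGB2, a chromatin protein of cycling cells, fell by 3.88 ± 0.30, NUSAP1, a spindle microtubule protein, by 3.78 ± 0.26, CENPF, a kinetochore protein, by 3.56 ± 0.29, and HMMR, a spindle assembly factor, by 3.46 ± 0.22 on the log2 scale. Within the early side the 5 h EGF library was again the lowest and the 1 h EGF library the highest in each of these 5 genes, TOP2A and MKI67.

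Genes of DNA replication fell less far. Of 44 listed and tested G1/S and replication genes 43 were lower early and none higher, with a median difference of -1.62. The exception, CCNE1, which encodes cyclin E1 and is named here because it was the single member not called, differed by -0.35. Thymidylate synthase TYMS (chromosome 18, 657604 to 673499) was at 60.4, 57.2 and 44.1 RPKM in mock, 24 h of ANG and 24 h of EGF and at 5.54, 4.79, 8.22 and 2.73 RPKM early (-3.18 ± 0.27, limma adjusted p = 6.77e-05). The ribonucleotide reductase subunit RRM2 (chromosome 2, 10262695 to 10271546) was at 63.2, 59.3 and 50.4 RPKM against 6.13, 5.01, 10.4 and 4.18 RPKM (-3.04 ± 0.24, limma adjusted p = 5.15e-05). Both supply deoxynucleotides, as does TK1 (-3.12 ± 0.16), and all 3 were separated between the sides. The repair gene BRCA1 (-2.96 ± 0.23) and the helicase component CDC45 (-2.68 ± 0.18) fell about as far, and the helicase subunit MCM2 fell by 1.57 ± 0.26, from 35.7 to 41.4 RPKM to between 7.67 and 19.1 RPKM.

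**Figure D1:**
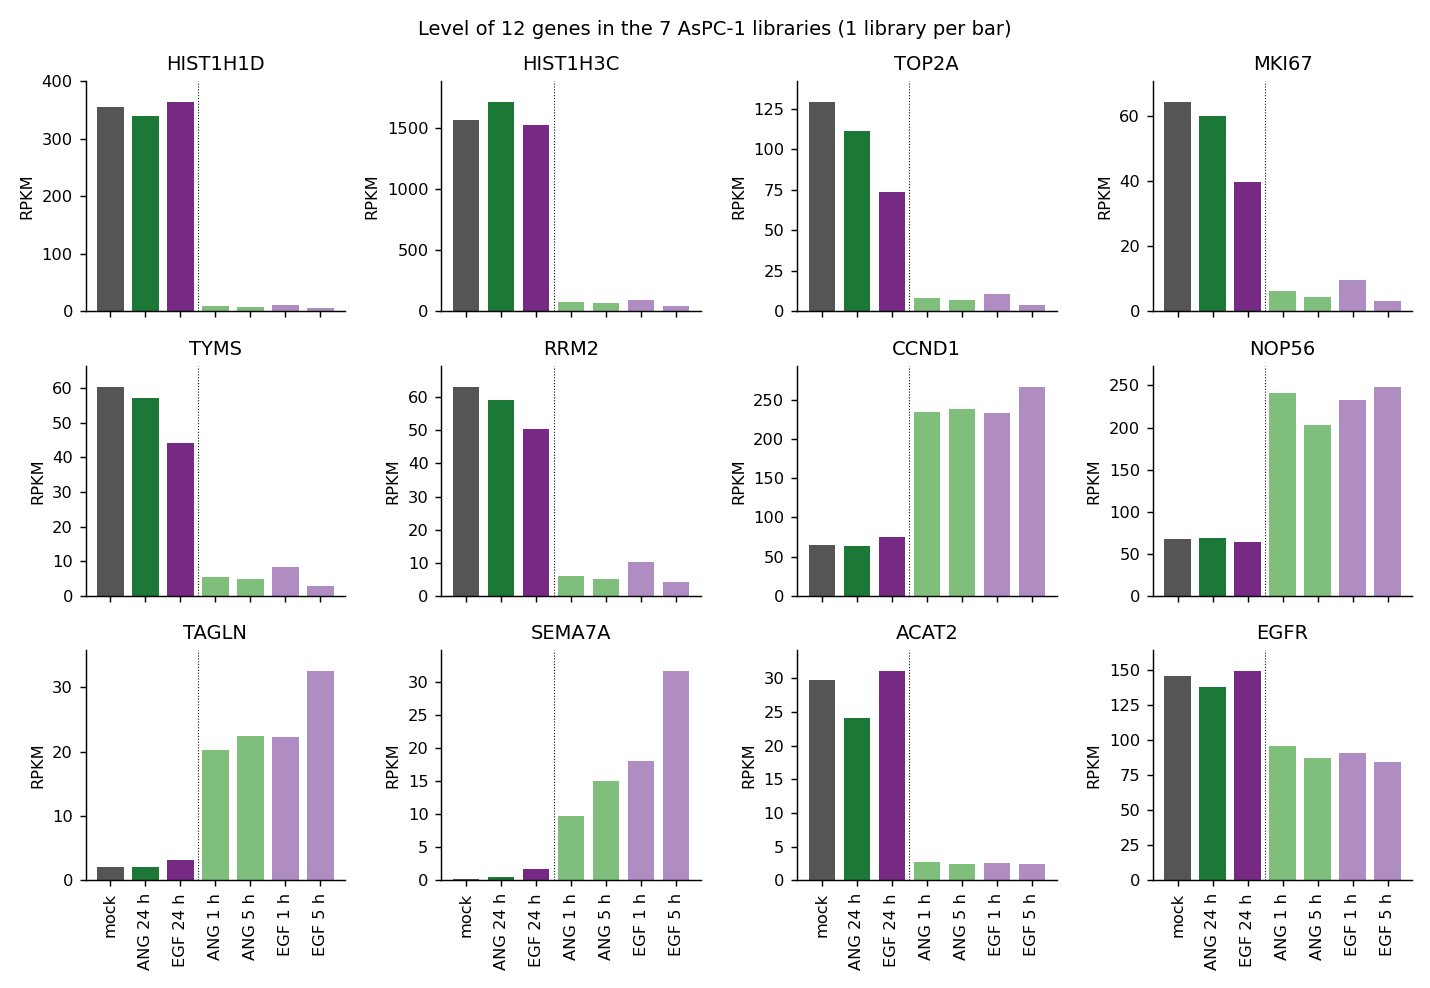
Level of 12 genes in RPKM (linear axis from 0) in each of the 7 AsPC-1 libraries, 1 bar per library, with a dotted line between the mock and 24 h side (left) and the early side (right). HIST1H1D, HIST1H3C, TOP2A, MKI67, TYMS, RRM2, ACAT2 and EGFR are lower in all 4 early libraries, and CCND1, NOP56, TAGLN and SEMA7A are higher in all 4.

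The promoters of the cell cycle genes were searched for short motifs, using 250 bases before to 50 after the start of each gene (RefSeq, GRCh38.p14, the most upstream start where there were several) and both strands. The motifs were the cell cycle homology region CHR (TTTGAA or TTCGAA), the CCAAT box of the factor NF-Y (CCAAT) and the E2F site (TTTCCCGC, TTTGGCGC, TTTGCCGC or TTTCGCGC). A CHR was found in 70.6% of the 34 G2/M genes that matched a promoter, a CCAAT box in 82.4% and both in 64.7%, against 16.7, 35.7 and 6.63% of all 27284 promoters. Of 38 matched G1/S genes 57.9% held an E2F site and 55.3% a CCAAT box, against 3.34 and 35.7% of all promoters, and 5.26% held a CHR. Of 46 matched histone genes 87.0% held a CCAAT box, 41.3% a CHR and 30.4% an E2F site. Among the G2/M genes 8.82% held an E2F site. A CCAAT box was not confined to lists that fell. It was in 94.4% of the 18 unfolded protein response and endoplasmic reticulum chaperone genes, of which 9 rose and 1 fell. Of the 10 S100 genes, of which 6 rose and 0 fell, 10.0% held it. The letters describe these windows and do not show binding.

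The 250 bases before the start of TOP2A and HMMR (G2/M), GINS2 and DTL (G1/S) and HIST1H1D and HIST1H3H (histones) are printed 5′ to 3′. They are examples that hold the motifs, which many members do not. Both CHR and CCAAT box were in 64.7% of matched G2/M genes, and an E2F site in 57.9% of matched G1/S genes. CHR, CCAAT box and E2F site are in capitals on either strand, and neighbouring capitals belong to adjacent or overlapping matches.
TOP2A: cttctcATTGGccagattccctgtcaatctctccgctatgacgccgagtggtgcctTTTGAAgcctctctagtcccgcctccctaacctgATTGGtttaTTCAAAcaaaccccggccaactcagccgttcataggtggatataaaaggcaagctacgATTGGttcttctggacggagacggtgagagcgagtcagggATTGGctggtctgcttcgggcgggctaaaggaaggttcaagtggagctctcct
HMMR: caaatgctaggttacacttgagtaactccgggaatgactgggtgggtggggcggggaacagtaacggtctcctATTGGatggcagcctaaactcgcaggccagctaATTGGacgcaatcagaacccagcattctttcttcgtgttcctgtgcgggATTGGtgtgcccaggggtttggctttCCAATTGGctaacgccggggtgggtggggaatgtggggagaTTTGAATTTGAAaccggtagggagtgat
GINS2: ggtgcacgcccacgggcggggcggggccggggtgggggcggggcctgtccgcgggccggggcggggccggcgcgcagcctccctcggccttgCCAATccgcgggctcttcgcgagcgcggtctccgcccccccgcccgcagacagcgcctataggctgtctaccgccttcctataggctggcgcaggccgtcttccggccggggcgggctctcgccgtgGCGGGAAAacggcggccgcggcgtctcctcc
DTL: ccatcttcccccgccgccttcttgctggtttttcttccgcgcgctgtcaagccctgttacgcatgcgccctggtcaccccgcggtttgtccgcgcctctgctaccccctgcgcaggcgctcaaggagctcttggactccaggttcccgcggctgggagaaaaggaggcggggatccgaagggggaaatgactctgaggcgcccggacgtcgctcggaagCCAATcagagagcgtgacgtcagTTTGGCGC
HIST1H1D: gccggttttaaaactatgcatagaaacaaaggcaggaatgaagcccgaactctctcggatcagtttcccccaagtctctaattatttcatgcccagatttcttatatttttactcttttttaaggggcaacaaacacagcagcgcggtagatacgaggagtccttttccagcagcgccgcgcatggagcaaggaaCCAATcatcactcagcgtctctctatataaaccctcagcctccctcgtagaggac
HIST1H3H: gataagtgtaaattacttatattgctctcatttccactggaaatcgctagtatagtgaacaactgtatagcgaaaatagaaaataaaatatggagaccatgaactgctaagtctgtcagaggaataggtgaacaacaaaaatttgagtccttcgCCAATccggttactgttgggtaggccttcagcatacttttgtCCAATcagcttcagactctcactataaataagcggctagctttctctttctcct
In GRCh38.p14 these are chr17:40417897-40418146 (minus strand), chr5:163460382-163460631 (plus), chr16:85688955-85689204 (minus), chr1:212035498-212035747 (plus), chr6:26234988-26235237 (minus) and chr6:27809801-27810050 (plus), where RefSeq calls the last genes H1-3 and H3C10. TOP2A held 4 CCAAT boxes and 2 CHRs, and HMMR held 2 CHRs side by side 17 to 28 bases before its start. GINS2 and DTL each held 1 E2F site and 1 CCAAT box, with that of DTL ending at the base before the start. The helicase gene GINS2 differed by -1.95 and the ubiquitin ligase gene DTL by -1.59 between the sides, less than TOP2A and HMMR.

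Of the genes that gate entry into S phase, 12 of 15 tested (17 listed) were lower early and 1 was higher. CCND1, cyclin D1 (chromosome 11, 69455873 to 69469242), was at 64.6, 63.6 and 75.1 RPKM in mock, 24 h of ANG and 24 h of EGF and at 234, 238, 233 and 267 RPKM after 1 and 5 h of ANG and 1 and 5 h of EGF, a rise of 1.83 ± 0.10 (limma adjusted p = 1.22e-05). The sides were far apart, in the opposite direction to the replication genes, and 5 h of EGF was the highest library. The inhibitors CDKN2B (28.2, 27.0 and 20.7 against 3.77 to 6.52 RPKM) and CDKN1B (33.8, 31.6 and 19.5 against 5.42 to 11 RPKM) fell by 2.09 ± 0.18 and 1.60 ± 0.25 (limma adjusted p = 6.77e-05 and 0.00113). CDKN1A, the inhibitor p21, was at 24.3 and 24.4 RPKM in mock and 24 h of ANG, 108 at 24 h of EGF and 40.8 to 156 RPKM early, and did not pass (0.94 ± 0.60, limma adjusted p = 0.215). Without the 24 h EGF library it passed at 1.65 ± 0.46 (limma adjusted p = 0.0155).

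MYC, the growth-promoting transcription factor, rose from 153, 142 and 173 RPKM to 303, 342, 278 and 411 RPKM (1.08 ± 0.15, limma adjusted p = 0.000649). Its antagonists MXD3 (-1.53 ± 0.22), MXD4 (-1.15 ± 0.22) and MXI1 (-0.91 ± 0.22) fell, and in all 3 the 24 h EGF library was the lowest of its side. Of 10 tested genes of the MYC, MAX and MXD network (12 listed) 5 rose and 3 fell (median -0.04). Of all genes tested 19.1% were higher and 33.6% lower, so the number that fell does not set this list apart. Without mock, without 24 h of ANG or without 5 h of EGF 3 of the list rose.

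Genes of ribosome production rose. Of 31 listed and tested ribosome biogenesis genes 25 were higher early and 1 lower, with a median difference of 0.90 against -0.12 for all genes tested, of which 19.1% were higher. NOP56, a core protein of the particles that methylate ribosomal RNA (chromosome 20, 2633254 to 2639039), was at 67.2, 68.4 and 64.4 RPKM in mock, 24 h of ANG and 24 h of EGF and at 241, 203, 233 and 249 RPKM early (1.78 ± 0.10, limma adjusted p = 1.22e-05). The ribosomal RNA methyltransferase NOP2 was at 20, 17.5 and 22 RPKM against 68.2, 61.6, 71.0 and 76.1 RPKM (1.75 ± 0.11, limma adjusted p = 1.67e-05). In both genes the 3 libraries of one side and the 4 of the other spread less than the gap between them. The assembly factor PNO1 (1.54 ± 0.10), the helicase DDX21 (1.46 ± 0.16) and the pre-ribosome factor RRP12 (1.46 ± 0.16) also rose. The single member called lower was no longer called with centred libraries or without mock, 24 h of ANG, 1 h of ANG or 5 h of ANG.

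Ribosomal protein genes differed by less than ribosome biogenesis genes, with a median difference of 0.26. Of 66 tested 19 were higher and 1 lower early, where 19.1% of all genes were higher and 33.6% lower, and in 29 of 66 the sides were apart with the early side higher (21.1% of all genes). RPS7 was at 8.57, 8.96 and 15.8 RPKM against 19.2 to 25.8 RPKM (0.95 ± 0.20, limma adjusted p = 0.00444), and RPL13A at 91.1, 87.1 and 81.0 RPKM against 48.4 to 55.0 RPKM (-0.77 ± 0.09, limma adjusted p = 0.000234). These genes have many processed copies in the genome, so their reads are uncertain. The count of higher members was 36 with centred libraries, 7 without 24 h of ANG, 11 without mock or without 1 h of EGF, and 12 without 5 h of ANG.

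Chaperones of the cytosol rose as well. Of 14 heat shock genes 10 were higher early and 0 lower (median 0.46). HSPA8, the constitutive Hsp70 chaperone (chromosome 11, 122928200 to 122932844), was at 375, 340 and 344 RPKM in mock, 24 h of ANG and 24 h of EGF and at 900, 876, 1013 and 936 RPKM early (1.40 ± 0.13, limma adjusted p = 0.000117). The inducible HSPA1A and HSPA1B, whose reads cannot be told apart with certainty, rose by 1.76 ± 0.14 and 1.5 ± 0.16. In the endoplasmic reticulum 9 of 18 unfolded protein response genes rose and 1 fell (median 0.29): the chaperone HYOU1 (0.97 ± 0.12), its partner HSPA5 (0.79 ± 0.18) and the co-chaperone DNAJC3 (0.70 ± 0.12) rose, while HERPUD1, a factor of protein disposal, fell from 18.8, 17.7 and 26.9 RPKM to between 5.12 and 6.30 RPKM (-1.66 ± 0.15, limma adjusted p = 8.13e-05).

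The largest rise among genes taken by the naming rule was that of SEMA7A, a membrane-anchored semaphorin (chromosome 15, 74701630 to 74726299). It was at 0.27, 0.59 and 1.68 RPKM in mock, 24 h of ANG and 24 h of EGF and at 9.80, 15, 18.1 and 31.6 RPKM after 1 and 5 h of ANG and 1 and 5 h of EGF. Every early library lay well above the other 3, at 3.37 ± 0.37 on the log2 scale (limma adjusted p = 0.000215). TAGLN, the actin-binding protein transgelin (chromosome 11, 117070040 to 117075508), was at 2.13, 2.03 and 3.11 RPKM against 20.2, 22.4, 22.3 and 32.5 RPKM (2.88 ± 0.18, limma adjusted p = 1.67e-05). PHLDA3, an inhibitor of AKT that p53 induces, was at 2.26, 2.46 and 2.79 RPKM against 16.3, 20.8, 17.1 and 37.9 RPKM (2.70 ± 0.26, limma adjusted p = 0.000116). In these 3 genes 5 h of EGF was the highest library.

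The rule took only genes whose sides did not overlap, so that separation was a condition of being named. The next genes by size follow. They were the GTPase RHOB (2.5 ± 0.43), PHLDA2 (2.40 ± 0.31), thrombomodulin THBD (2.35 ± 0.50), the cytokine IL32 (2.33 ± 0.15), the Wnt acyltransferase PORCN (2.25 ± 0.31), the lipid enzyme AGPAT9 (2.19 ± 0.41), the dehydrogenase DHRS9 (2.19 ± 0.59), IFFO2 (2.19 ± 0.29), the semaphorin SEMA3B (2.18 ± 0.20), the growth factor carrier FGFBP1 (2.17 ± 0.29), the AP-1 factor FOSL1 (2.16 ± 0.34) and the sphingolipid enzyme FA2H (2.10 ± 0.31). IL32 was the tightest of them, at 6.06, 8.07 and 9.98 RPKM against 40.3, 41.8, 49.0 and 44.4 RPKM. DHRS9 was the loosest: it was at 23.3 and 22.3 RPKM in mock and 24 h of ANG but at 147 RPKM in 24 h of EGF, against 178 to 269 RPKM early, and it missed the threshold without mock (1.77 ± 0.62, limma adjusted p = 0.0533) and without 24 h of ANG (1.73 ± 0.60, limma adjusted p = 0.0529). Without 24 h of EGF, DHRS9 differed by 3.07 ± 0.18 and THBD by 3.02 ± 0.30.

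Genes of the actin cytoskeleton made up a larger set. Of 18 tested SRF and YAP target genes (20 listed) 13 were higher early and 1 lower, with a median of 0.76. Beside TAGLN, the focal adhesion protein ZYX was at 6.83, 7.04 and 12.7 RPKM against 28.0, 30.4, 35.4 and 37.2 RPKM (1.82 ± 0.20, limma adjusted p = 0.000211). The actins ACTB (617, 652 and 1269 against 1966 to 2695 RPKM, 1.52 ± 0.30) and ACTG1 (268, 243 and 573 against 887 to 1224 RPKM, 1.63 ± 0.30) rose, with 24 h of EGF the highest library of its side in both (limma adjusted p = 0.00335 and 0.00241). TGFB2, a TGF-beta ligand, rose by 1.57 ± 0.12.

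Receptors and ligands of the basement membrane were divided. Of 15 genes of integrins, laminin-332 and hemidesmosomes 6 rose and 3 fell (median 0.51). PLEC, which ties hemidesmosomes to keratin, was at 36.7, 37.3 and 56.8 RPKM against 144, 150, 173 and 181 RPKM (1.89 ± 0.17, limma adjusted p = 7.51e-05), and the laminin receptor subunit ITGA3 rose by 1.48 ± 0.20. In both genes the 24 h EGF library was the highest of its side. The number of genes of this list that rose was 3 without mock and 3 without 24 h of ANG.

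**Figure D2:**
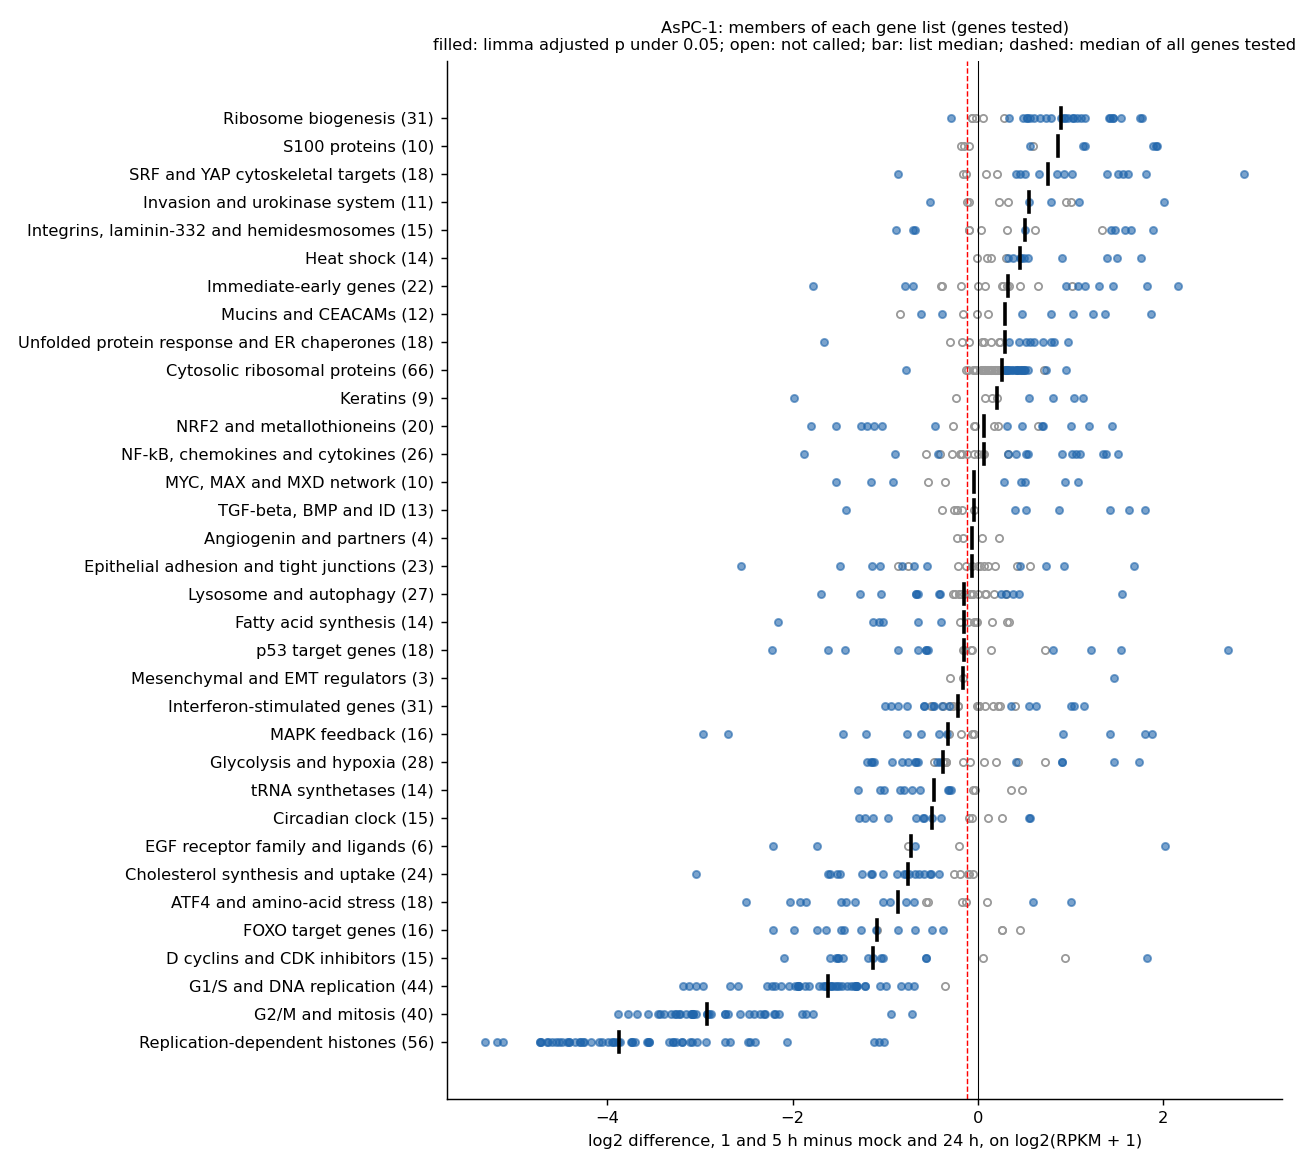
Log2 difference (early minus mock and 24 h, log2(RPKM + 1) scale) of every tested member of 34 gene lists, ordered by list median, with the number tested in brackets. Filled points passed the limma threshold, open points did not, black bars are list medians and the dashed line is the median of all genes tested (-0.12). Histones, G2/M and G1/S genes lie farthest to the left, and ribosome biogenesis genes have the highest median (0.90).

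The immediate-early genes, which growth factors switch on within an hour, did not move as a block. Of 22 tested (25 listed) 7 were higher, 3 lower and 12 not called (median 0.33). EGR1, a zinc finger factor (chromosome 5, 137801181 to 137805004), was at 5.40, 5.61 and 12.9 RPKM in mock, 24 h of ANG and 24 h of EGF and at 4.07, 4.73, 42.4 and 7.33 RPKM after 1 and 5 h of ANG and 1 and 5 h of EGF. It was high in the 1 h EGF library alone, and the sides overlapped (0.27 ± 0.70, limma adjusted p = 0.763). FOS had the same pattern, at 10.3, 10.3 and 15.7 RPKM against 5.11, 6.94, 23.6 and 6.65 RPKM (-0.40 ± 0.43, limma adjusted p = 0.470). Without 1 h of EGF, EGR1 differed by -0.43 and did not pass, and FOS differed by -0.84 ± 0.19 and did (limma adjusted p = 0.00929).

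FOSL1, a longer-lived AP-1 subunit (chromosome 11, 65659692 to 65667997), was at 18.9, 18.3 and 42.9 RPKM against 79.0, 93.3, 139 and 161 RPKM, with both ligands high at both early times (limma adjusted p = 0.00105). JUN was at 12.5, 13.1 and 8.80 RPKM against 17.4, 26.8, 59.7 and 40.8 RPKM (1.45 ± 0.36, limma adjusted p = 0.00950), and the EGF libraries were higher than the ANG libraries. The nuclear receptor NR4A1 (2.51, 3.22 and 3.70 against 5.22, 8.68, 61.0 and 11.2 RPKM) was close to the threshold (1.83 ± 0.67, limma adjusted p = 0.0465). It missed it without any 1 library other than ANG 1 h and EGF 1 h (limma adjusted p = 0.0581 to 0.119) and differed by 1.13 ± 0.25 without 1 h of EGF. Its relative NR4A2 fell from 14.5, 15.1 and 4.5 RPKM to between 1.37 and 3.18 RPKM (-1.78 ± 0.38, limma adjusted p = 0.00460).

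Feedback genes of the ERK pathway went both ways. Of 16 tested (17 listed) 4 rose and 8 fell (median -0.33). ETV5 and ETV4, ETS factors that ERK signalling induces, were among the lowest: ETV5 (chromosome 3, 185764106 to 185826901) was at 30.4, 29.9 and 27.3 RPKM in mock, 24 h of ANG and 24 h of EGF and at 3.28, 3.20, 3.75 and 1.60 RPKM early (-2.97 ± 0.20, limma adjusted p = 2.36e-05). ETV4 was at 42.8, 41.7 and 27.2 RPKM against 3.69 to 5.43 RPKM (-2.70 ± 0.18). DUSP6, the ERK phosphatase (chromosome 12, 89741837 to 89746296), was at 215, 204 and 188 RPKM against 91.8, 91.8, 72.9 and 94.5 RPKM (-1.20 ± 0.12, limma adjusted p = 0.000121). In all 3 genes the sides were apart in both ligands.

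Other phosphatases rose in the same libraries. DUSP2 was at 0.75, 0.73 and 1.18 RPKM against 4.34, 4.46, 8.58 and 5.70 RPKM (1.81 ± 0.21, limma adjusted p = 0.000268). DUSP1 (8.0, 8.56 and 21.6 against 20.7, 29.9, 101 and 64.2 RPKM) overlapped between the sides at 24 h of EGF and 1 h of ANG (1.88 ± 0.54, limma adjusted p = 0.0181) and missed the threshold without mock (limma adjusted p = 0.0667) or without 24 h of ANG (limma adjusted p = 0.0640). The receptor inhibitor ERRFI1 was at 54.5, 52.6 and 175 RPKM against 21.6, 21.9, 43.1 and 31.8 RPKM (-1.45 ± 0.42, limma adjusted p = 0.0193), with 24 h of EGF the highest library. It missed the threshold without 5 h of ANG (limma adjusted p = 0.0525).

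Of the EGF receptor family and its ligands 6 of 11 listed were tested. EGFR (chromosome 7, 55086725 to 55275031) was at 146, 138 and 149 RPKM in mock, 24 h of ANG and 24 h of EGF and at 96.0, 87.1, 91.2 and 84.5 RPKM early, so that it fell by 0.68 ± 0.09 with no overlap (limma adjusted p = 0.000395). Its partner ERBB3 (chromosome 12, 56473892 to 56497128) was at 168, 146 and 62.0 RPKM against 28.2, 28.6, 24.5 and 17.1 RPKM (-2.21 ± 0.33, limma adjusted p = 0.000830), and ERBB2 at 33.7, 30.9 and 15.7 RPKM against 7.45, 7.22, 8.14 and 5.30 RPKM (-1.73 ± 0.25, limma adjusted p = 0.000696). In both partners 24 h of EGF lay between the other libraries of its side and the early ones. The ligand TGFA (chromosome 2, 70674417 to 70781105) was at 27.9, 25.1 and 74.7 RPKM against 126, 138, 141 and 242 RPKM (2.02 ± 0.38, limma adjusted p = 0.00243). HBEGF (10.9, 9.42 and 22.9 against 4.74, 4.96, 16.7 and 7.70 RPKM) did not pass (-0.75 ± 0.43, limma adjusted p = 0.169) but did without 1 h of EGF (-1.10 ± 0.32, limma adjusted p = 0.0260). The EGF gene itself was listed at 0 in 6 libraries and at 0.02 RPKM in that of 1 h of EGF.

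Of ANG and its partners 4 of 5 listed were tested and 0 were called. ANG, whose span overlaps RNASE4 so that reads of the pair are uncertain (chromosome 14, 21152336 to 21162345), was at 2.47, 3.14 and 1.81 RPKM against 1.56, 1.93, 1.86 and 2.44 RPKM (-0.23 ± 0.16, limma adjusted p = 0.266). The receptor PLXNB2 was at 57.2 to 62.7 RPKM against 44.0 to 62.5 RPKM (-0.16 ± 0.12, limma adjusted p = 0.309, and 0.01 with centred libraries). The ribonuclease inhibitor RNH1 was at 71.3 to 84.9 RPKM against 81.9 to 96.7 RPKM (0.23 ± 0.10, limma adjusted p = 0.0853). Without 24 h of EGF, ANG (-0.37 ± 0.14, limma adjusted p = 0.0487), RNASE4 (-0.42 ± 0.15, limma adjusted p = 0.0398) and RNH1 (0.31 ± 0.09, limma adjusted p = 0.0200) passed, and with centred libraries RNH1 passed (limma adjusted p = 0.0286).

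Sterol genes fell. Of 24 tested genes of cholesterol synthesis and uptake (25 listed) 19 were lower early and 0 higher, with a median of -0.76. ACAT2, which condenses acetyl-CoA at the start of the pathway (chromosome 6, 160182989 to 160200087), was at 29.7, 24.0 and 31.0 RPKM in mock, 24 h of ANG and 24 h of EGF and at 2.74, 2.46, 2.55 and 2.37 RPKM early (-3.04 ± 0.11, limma adjusted p = 2.54e-06). Its 4 early values lay close together and far below the others. DHCR7, which makes cholesterol from its last precursor, was at 20.8, 20.2 and 32.4 RPKM against 6.5 to 7.59 RPKM (-1.59 ± 0.16), and the methylsterol oxidase SC4MOL (MSMO1) fell by 1.49 ± 0.13. The synthase HMGCS1 (26.2, 21.1 and 27.8 against 12.7 to 17.5 RPKM) fell by 0.68 ± 0.15 (limma adjusted p = 0.00485).

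Of 14 fatty acid genes 6 fell and 0 rose (median -0.15, and 0.01 with centred libraries, where 5 fell and 2 rose). Without 1 h or without 24 h of EGF 1 of them rose. The desaturase FADS2 was at 22.2, 20.4 and 21.8 RPKM against 3.62, 4.63, 4.46 and 3.52 RPKM (-2.16 ± 0.11, limma adjusted p = 7.57e-06), and the desaturase SCD at 78.9, 75.8 and 93.3 RPKM against 35.9 to 42.4 RPKM (-1.07 ± 0.10, limma adjusted p = 0.000109).

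Genes of the amino acid response were lower early, also against mock alone, and were above mock in the later 24 h EGF library. Relative to mock the list median was -0.72, -0.69, -0.55 and -0.67 after 1 and 5 h of ANG and 1 and 5 h of EGF. It was 0.68 at 24 h of EGF. Of 18 tested ATF4 and amino-acid stress genes (23 listed) 11 were lower early and 2 higher (median -0.86). The pseudokinase TRIB3 (chromosome 20, 361308 to 378203) was at 21.4, 19.5 and 95.9 RPKM in mock, 24 h of ANG and 24 h of EGF and at 5.25, 4.92, 6.16 and 4.78 RPKM early (-2.50 ± 0.48, limma adjusted p = 0.00276). Sestrin SESN2 was at 7.55, 8.06 and 29.0 RPKM against 2.22 to 3.34 RPKM (-1.85 ± 0.40, limma adjusted p = 0.00489). All early values were below all others, and without 24 h of EGF the differences were -1.78 ± 0.11 for TRIB3 and -1.26 ± 0.14 for SESN2. The serine enzyme PSPH (-2.03 ± 0.16) and the glutathione enzyme CHAC1 (-1.92 ± 0.19) also fell. The genes called higher numbered 0 without mock or without 24 h of ANG, and 1 without 5 h of ANG, 1 h of EGF or 5 h of EGF.

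Of 14 cytosolic tRNA synthetases 10 were lower and 0 higher (median -0.47). CARS was at 64.8, 53.4 and 80.8 RPKM against 24.5 to 27.9 RPKM (-1.29 ± 0.14, limma adjusted p = 0.000165), and GARS at 123, 102 and 194 RPKM against 61.9 to 69.0 RPKM (-1.06 ± 0.19, limma adjusted p = 0.00222). Without 24 h of EGF 2 synthetases were higher.

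FOXO target genes, which FOXO factors induce when PI3 kinase is low, fell in 12 of 16 tested members (20 listed) and rose in 0, with a median of -1.09. KLHL24 was at 8.56, 8.06 and 2.72 RPKM against 0.83, 0.75, 0.80 and 0.58 RPKM (-1.98 ± 0.30, limma adjusted p = 0.000910), and the insulin receptor INSR at 17.1, 15.8 and 7.91 RPKM against 2.44 to 4.32 RPKM (-1.64 ± 0.26, limma adjusted p = 0.00104). In both, as in ERBB3, which is also on this list, 24 h of EGF lay between mock and the early libraries. The adaptor IRS2 (15.6, 16.8 and 5.10 against 1.84 to 4.91 RPKM) fell by 1.48 ± 0.39 (limma adjusted p = 0.0126) and missed the threshold without mock (limma adjusted p = 0.0514) or without 24 h of ANG (limma adjusted p = 0.0525). Either omission left 7 of the list called lower, and without 1 h of EGF or with centred libraries 1 member rose.

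In glucose metabolism 12 of 28 tested genes (29 listed) were lower and 5 higher (median -0.37). Of all genes tested 33.6% were lower and 19.1% higher, so the number that rose does not set this list apart. Among those higher, the glucose transporter SLC2A1 was at 66.9, 70.6 and 102 RPKM against 184, 210, 232 and 258 RPKM (1.47 ± 0.17, limma adjusted p = 0.000284). Hexokinase HK2, also higher, was at 4.08, 2.97 and 5.69 RPKM against 13.8 to 20.8 RPKM (1.74 ± 0.20, limma adjusted p = 0.000251). The angiogenic factor VEGFA fell from 33.2, 30.7 and 24.8 RPKM to between 10.8 and 15.6 RPKM (-1.15 ± 0.14, limma adjusted p = 0.000332). Of 20 NRF2 and metallothionein genes 7 rose, among them GCLM of glutathione synthesis (1.44 ± 0.17), and 7 fell, among them AKR1C3 (-1.80 ± 0.23) and the metallothionein MT1E (-1.53 ± 0.19). The number that fell was near the share of all genes tested. Of 15 clock genes 9 fell and 2 rose (median -0.49), with the output factors DBP (-1.29 ± 0.31) and TEF (-1.22 ± 0.11) lowest, and 1 clock gene rose when mock, 24 h of ANG, 5 h of ANG, 1 h of EGF or 5 h of EGF was left out. Of 27 lysosome and autophagy genes 8 fell, among them their regulator TFEB (-1.70 ± 0.19), and 5 rose, both near the shares of all genes tested (33.6% lower, 19.1% higher). The genes that rose numbered 1 without 24 h of ANG, 2 without 5 h of EGF and 3 without any other early library.

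Among inflammatory genes, 11 of 26 tested NF-kB, chemokine and cytokine genes (30 listed) rose and 3 fell (median 0.07). The chemokines CXCL1 (1.44, 0.90 and 1.31 against 2.16, 3.40, 8.59 and 7.12 RPKM, 1.38 ± 0.36) and IL8 (0.81, 1.03 and 1.51 against 2.57, 2.83, 7.06 and 6.52 RPKM, 1.36 ± 0.31) were low throughout and highest with EGF (limma adjusted p = 0.0118 and 0.00653). TNFAIP3, which shuts off NF-kB, rose by 1.51 ± 0.30, and the cytokine IL18 fell from 70.4, 68.5 and 45.1 RPKM to between 13 and 19.5 RPKM (-1.88 ± 0.18, limma adjusted p = 0.000117). Without 24 h of ANG 7 of the list rose, and without 24 h of EGF 6 fell. Of 31 interferon-stimulated genes tested (37 listed) 10 fell, led by IFIT2 (-1.0 ± 0.27), and 6 rose, led by ISG20 (1.15 ± 0.19). Both counts were near the shares of all genes tested (33.6% lower, 19.1% higher), so they do not set this list apart. The fallen ones numbered 3 without mock, 4 without 24 h of ANG and 6 without 5 h of EGF. IFIT2 missed the threshold without mock (limma adjusted p = 0.0569) or without 24 h of ANG (limma adjusted p = 0.0562).

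Epithelial and mesenchymal genes did not move as sets. E-cadherin CDH1 (chromosome 16, 68771195 to 68869444) was at 23.4, 21.3 and 21.9 RPKM in mock, 24 h of ANG and 24 h of EGF and at 68.9, 70.9, 66.6 and 89.3 RPKM early (1.68 ± 0.11, limma adjusted p = 2.60e-05). ESRP1, the splicing factor of epithelia, was at 27.3, 23.6 and 15.8 RPKM against 2.35 to 3.20 RPKM (-2.55 ± 0.18, limma adjusted p = 2.84e-05), and the tight junction claudin CLDN1 fell by 1.49 ± 0.33. In all, 4 of 23 adhesion and tight junction genes rose and 7 fell, near the shares of all genes tested (19.1% higher, 33.6% lower). Their median was -0.06, and 0.10 with centred libraries. Of the 3 tested mesenchymal regulators (10 listed) only SNAI2, the EMT factor Slug, was called: it rose from 22.4, 19.6 and 50.6 RPKM to 55.4, 68.7, 89.9 and 119 RPKM (1.47 ± 0.35, limma adjusted p = 0.00769), while vimentin VIM, abundant in this line, was at 1355 to 1798 RPKM against 1269 to 1396 RPKM (-0.16 ± 0.20, limma adjusted p = 0.515).

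Of 10 tested S100 genes (12 listed), calcium-binding proteins often abundant in pancreatic cancer, 6 rose and 0 fell (median 0.86). S100P was at 84.2, 88.4 and 112 RPKM against 320, 337, 376 and 421 RPKM (1.93 ± 0.14, limma adjusted p = 3.92e-05), and S100A14 at 14.5, 13.9 and 43.6 RPKM against 69.1, 72.5, 75.2 and 121 RPKM (1.93 ± 0.38, limma adjusted p = 0.00315). LCN2, the iron-carrier lipocalin, rose from 156, 154 and 102 RPKM to between 463 and 540 RPKM (1.87 ± 0.17, limma adjusted p = 8.13e-05).

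In the remaining lists both directions occurred. Of 12 tested mucin and CEACAM genes 6 rose and 2 fell, the fallen ones numbering 4 without 24 h of EGF and 1 with centred libraries or without any 1 of mock, 1 h of ANG, 5 h of ANG, 24 h of ANG and 1 h of EGF. Of 9 tested keratins (17 listed) 4 rose and 1 fell. Without 24 h of ANG or without 1 h of EGF 2 keratins rose, and 0 fell without mock or 24 h of ANG and 2 without 24 h of EGF. Of 11 tested invasion genes (18 listed) 4 rose and 1 fell, and the fallen ones numbered 0 with centred libraries or without mock, 24 h of ANG or 5 h of EGF. Of 18 p53 target genes 4 rose and 8 fell, with TNFRSF10B (75.3, 68.1 and 94.8 against 14.9 to 18.6 RPKM) lowest at -2.23 ± 0.13, and 5 fell without mock or without 24 h of ANG. Of 13 tested TGF-beta and BMP genes (15 listed) 6 rose, led by BMP2 (1.81 ± 0.21), and 1 fell, TGFBR2 (-1.42 ± 0.27). Of that list 3 rose without mock or without 24 h of ANG, and 6 fell without 24 h of EGF.

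**Figure D3:**
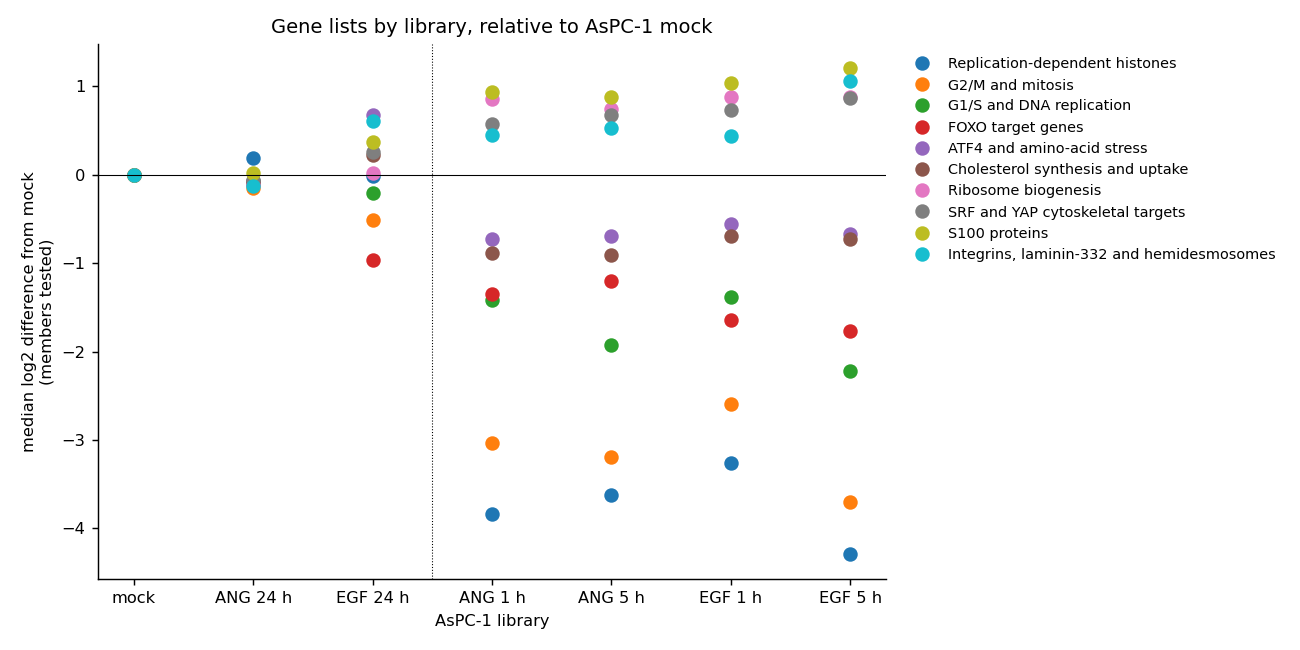
Median log2 difference from AsPC-1 mock (vertical axis, log2(RPKM + 1) scale) of the tested members of 10 gene lists in each of the 7 libraries (horizontal axis), with a dotted line between the sides. Histone and G2/M medians lie between -2.59 and -4.29 in the 4 early libraries, and the 24 h EGF library stands apart from mock for the FOXO (-0.96), ATF4 (0.68) and integrin and laminin lists (0.61) but not for histones (-0.01).

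The ligands were also compared apart from mock. Taken within a ligand, which removes mock and shares no library, the mean of 1 and 5 h minus 24 h was at least 2-fold in 1764 genes for ANG (415 higher and 1349 lower) and in 1330 genes for EGF (447 higher and 883 lower). Across the 12024 genes, which are not independent of one another, the ANG and EGF differences had a Pearson r of 0.81. For the histone list the median was -3.95 with ANG and -3.90 with EGF, for G2/M -3.02 and -2.61, for ribosome biogenesis 0.91 and 0.79, and for cholesterol genes -0.78 and -0.80. Other lists differed more between ligands: the median was -0.62 with ANG and -1.23 with EGF for ATF4 genes, -1.18 and -0.69 for FOXO targets, 0.19 and 0.48 for immediate-early genes, 0.03 and 0.47 for NF-kB genes and -0.003 and 0.77 for mucins. A test of whether the difference depended on ligand called 0 genes (limma, 2 residual degrees of freedom), and 1215 genes (10.1%) had an unadjusted p under 0.05. It called 483 genes without 1 h of EGF and 371 without 5 h of EGF, each with 1 residual degree of freedom, so that its outcome rests on single libraries and does not show that the ligands acted alike.

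The 24 h libraries, 1 for each ligand, were then placed between mock and the early libraries. For each gene the 24 h level was set on a scale from mock (0) to the mean of the early libraries (1). This was done over the 5677 of 12024 genes whose early mean was at least 0.5 (log2) from mock. The choice does not use the 24 h libraries. It does use the 1 mock library, which also sets 0, so genes in which mock alone deviated favour positions above 0 for both 24 h libraries. The median position was 0.07 for 24 h of ANG and 0.41 for 24 h of EGF. Over the genes called 2-fold higher and lower it was -0.03 and 0.04 for ANG and 0.23 and 0.27 for EGF, but those calls used the 24 h libraries on the mock side and so favour positions near 0. Of mock, 24 h of ANG and 24 h of EGF, the last was farthest in the direction of the early difference in 59.4% of all genes tested. Mock was so in 22.8% and 24 h of ANG in 17.3%. A value beyond the early level counts here too, and the direction was set with all 3 libraries included. With 1 library each, the ligand and the library cannot be told apart.

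The gene lists were not at one place on that scale. Over members placed in the same way, the 24 h EGF library was at a median of 0.74 for integrins and laminin (12 genes), 0.71 for interferon-stimulated genes (15 genes) and 0.59 for FOXO targets (14 genes). It was at 0.18 for G2/M genes, 0.11 for G1/S genes and 0.003 for histones, which were at the mock level. It lay on the far side of mock for ATF4 genes (-0.52, 14 genes) and cholesterol genes (-0.23, 15 genes). Among the named genes, those far from the rest of their side at 24 h of EGF included SDPR, a caveola protein (73.9 and 69.6 RPKM in mock and 24 h of ANG, 2.98 at 24 h of EGF and 0.64 to 4.12 early), and SPNS2, a sphingosine phosphate transporter (34.9 and 35.5 RPKM, 4.75 RPKM and 1.26 to 2.71 RPKM). The early differences of SDPR and SPNS2 were -2.98 ± 0.97 and -2.75 ± 0.59 (limma adjusted p = 0.0297 and 0.00492) and became -4.38 ± 0.42 and -3.64 ± 0.19 without 24 h of EGF. SDPR missed the threshold without any 1 of mock, 24 h of ANG, 5 h of ANG, 1 h of EGF and 5 h of EGF (limma adjusted p = 0.0510 to 0.110).

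**Figure D4:**
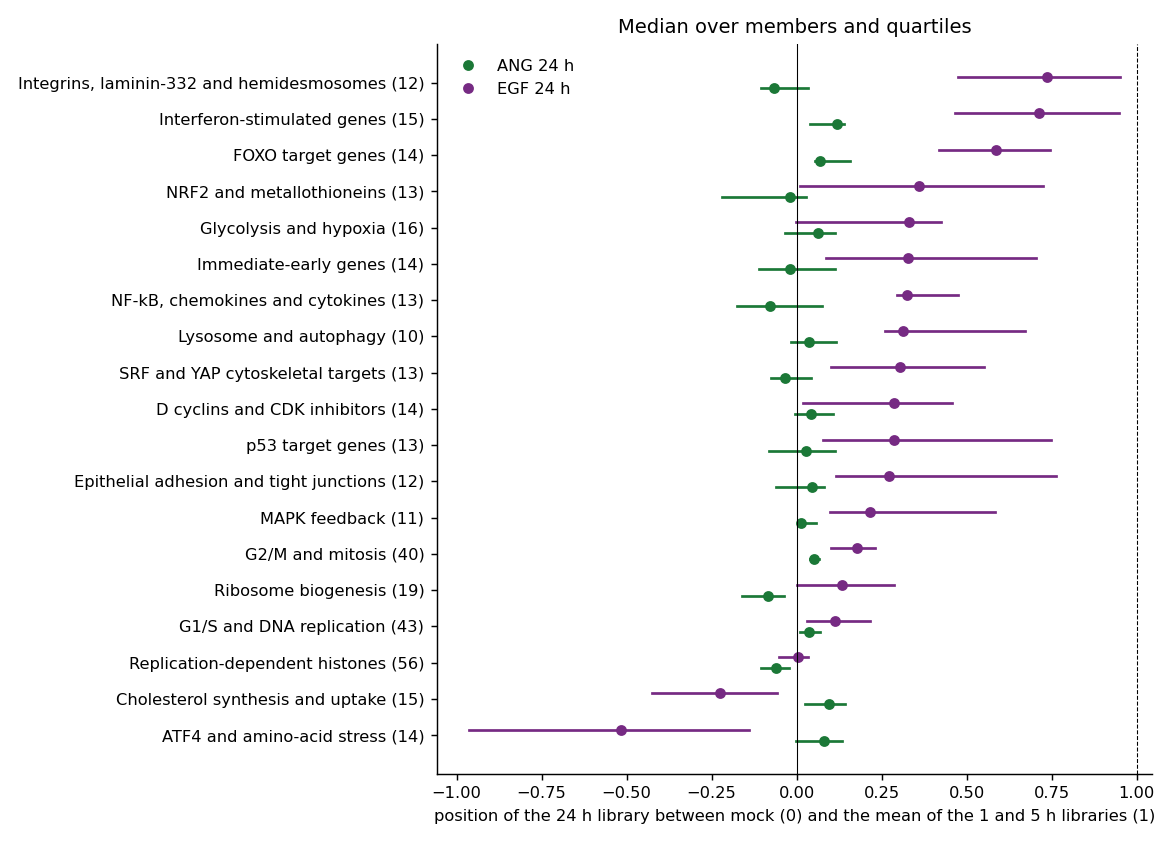
Position of the ANG 24 h (green) and EGF 24 h (purple) libraries between mock (0, solid line) and the mean of the early libraries (1, dashed line), on the log2(RPKM + 1) scale, for gene lists with at least 10 placed members (number in brackets). Points are medians over genes and lines run from the lower to the upper quartile. The 24 h ANG medians lie between -0.08 and 0.12 in the lists drawn, and the 24 h EGF library ranges from -0.52 (ATF4 genes) to 0.74 (integrins and laminin).

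The same division of libraries was made in Panc-1, and the difference between the lines was tested as an interaction over 13427 genes in all 14 libraries. It passed in 6610 genes (49.2%), with the AsPC-1 difference above that of Panc-1 in 2826 (21.0%) and below it in 3784 (28.2%). Here too the spread is that between different conditions. The sides were chosen with the grouping of the AsPC-1 libraries in view, so these counts are a description. Across the 12024 genes the differences of the lines had a Pearson r of -0.25, a description over genes that are not independent. A Panc-1 difference above 0 was found in 50.8% of the genes lower early in AsPC-1, in 50.2% of those higher and in 47.7% of all genes tested.

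Cell cycle genes were opposite in sign. The histone list had a median difference of 1.74 in Panc-1 against -3.87 in AsPC-1, and the interaction was below 0 in 56 of 56. For G2/M genes the medians were 1.49 and -2.92 (below 0 in 40 of 40), and for G1/S genes 1.15 and -1.62 (below 0 in 43 of 44). HIST1H1D differed by 2.05 in Panc-1, so that the lines were 7.37 ± 0.30 apart (limma adjusted p = 1.79e-09), and TOP2A by 1.88, with the lines 5.55 ± 0.34 apart (limma adjusted p = 3.6e-08). CCND1 was reversed the other way, at -0.72 in Panc-1 and 1.83 in AsPC-1 (interaction 2.54 ± 0.16, limma adjusted p = 4.81e-08). DUSP6 was at 1.07 in Panc-1 and -1.20 in AsPC-1 (interaction -2.27 ± 0.56, limma adjusted p = 0.00430).

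Other lists lay less far apart than the cell cycle lists, though ATF4 and heat shock genes were also opposite in sign. Of all genes in the interaction test 21.0% passed above 0 and 28.2% below 0. The median of cholesterol genes was -1.06 for Panc-1 and -0.76 for AsPC-1, and the interaction passed above 0 in 7 and below 0 in 4 of 24. DHCR7 was at -1.64 and -1.59 (interaction 0.04 ± 0.18, limma adjusted p = 0.857), while ACAT2 fell farther in AsPC-1 (-1.60 and -3.04, interaction -1.44 ± 0.17, limma adjusted p = 1.17e-05). ATF4 genes were at 0.68 in Panc-1 and -0.86 in AsPC-1, with the interaction below 0 in 13 of 18, and heat shock genes at -0.17 and 0.46, above 0 in 9 of 14. Ribosome biogenesis genes were at 0.24 and 0.90, above 0 in 20 of 31. FOSL1 was higher early by 1.07 in Panc-1 and 2.16 in AsPC-1 (interaction 1.09 ± 0.52, limma adjusted p = 0.0976), and MYC by 0.51 and 1.08 (0.58 ± 0.26, limma adjusted p = 0.0826).

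**Figure D5:**
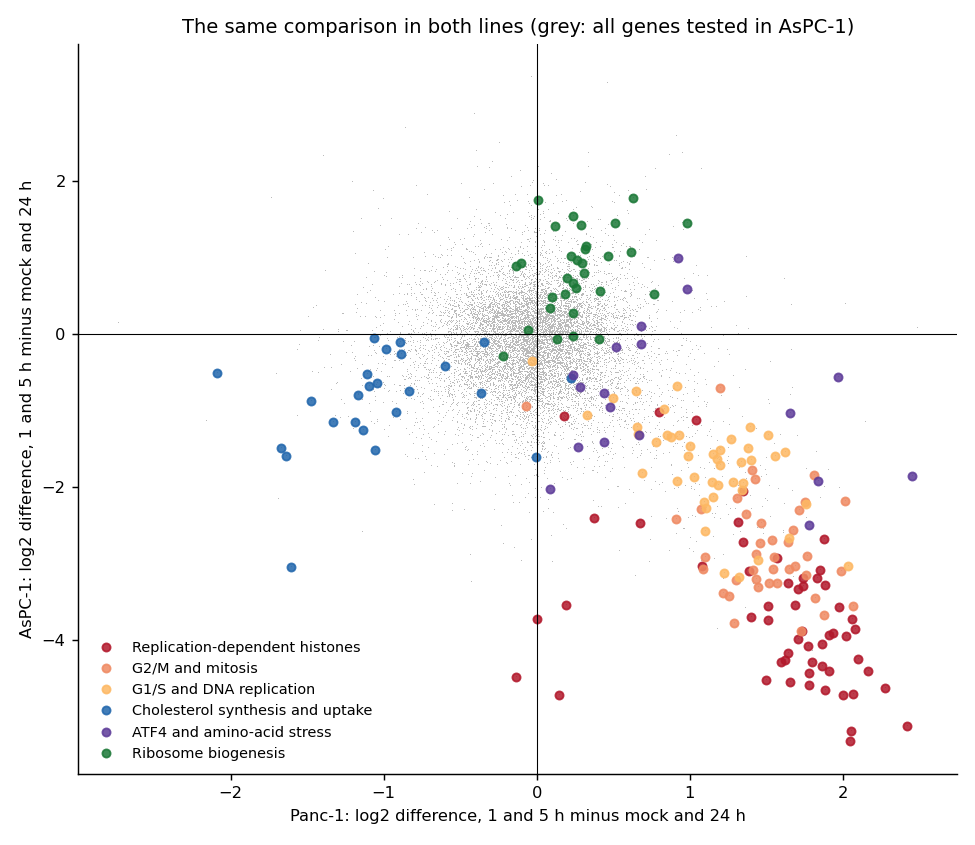
Log2 difference of the 1 and 5 h libraries from the mock and 24 h libraries in Panc-1 (horizontal) and AsPC-1 (vertical), log2(RPKM + 1) scale, 1 point per gene, grey for all 12024 genes tested in AsPC-1 and coloured for 6 gene lists. Histones, G2/M and G1/S genes lie mostly at the lower right (median 1.74, 1.49 and 1.15 in Panc-1 and -3.87, -2.92 and -1.62 in AsPC-1), and cholesterol genes at the lower left (-1.06 and -0.76).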

How the data were processed

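The 7 AsPC-1 libraries, and the 7 of Panc-1 for comparison, were grouped by the labels into early (1 and 5 h) and mock and 24 h. The authors deposited 1 table per library with log2 RPKM of 23040 genes, per the file headers, with coordinates on hg19 (source: the submitters' processing notes). Which aligner, counter, annotation, strand setting and RNA selection were used is not given in the sources used here. The deposited log2 values were turned back to RPKM, with the floor of -8.966 read as a listed 0. Low values, those under 5 RPKM, fell on steps of 0.01 RPKM in 95.8% of cases (tolerance 0.1 of a step). Depth was estimated from the value of 1 read in genes spanning 150 bp or less, and 1 read in 2 kb of transcript was worth 0.0211 to 0.0266 RPKM in AsPC-1.

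A gene was tested if 2 or more of the libraries reached 1 RPKM, on log2(RPKM + 1), which understates changes of low genes, with limma 3.58.1 in R 4.3.3 (two-sided, trend of variance on mean level, Benjamini-Hochberg, threshold 0.05). The fits were early against mock and 24 h (7 libraries), its interaction with line (14 libraries) and with ligand (6 treated libraries). The fits were checked on simulated data. The sides, the naming rule and the 34 gene lists were chosen with earlier results of these data known. The rule took the 15 highest and 15 lowest differences with sides apart, up to 5 members per list, the 10 largest differences by line, the 5 largest by ligand and a fixed set of signalling, cell cycle and sterol genes. CCNE1, GINS2 and DTL were named outside it, and some genes the rule takes are not reported here. Alternatives were other pseudocounts, filters, scalings and variance models, the removal of genes under 400 bp and the omission of libraries. Promoter sequences are from RefSeq. Motif shares are given for the G2/M, G1/S and histone lists, each with at least 80% of genes matched. Of other lists matched that far, only CCAAT shares of unfolded protein response and S100 genes are given.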

Additional observations from a re-analysis of the deposited data

Results flagged for a closer look

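In 20 of 200 named genes compared, 1 of the 4 early libraries stood far from the other 3 by Dixon's criterion, which chance alone meets in about 1 in 20 groups. In most of them it was the 5 h EGF library: PORCN stood at 40.8 RPKM, AGPAT9 at 103, DHRS9 at 269, CCND1 at 267, TGFA at 242, PNO1 at 44.2, the plasminogen activator PLAT at 47.8, the laminin chain LAMA3 at 276, CEACAM1 at 231, BMP6 at 29.7, S100A14 at 121, S100A2 at 116 and HIST1H2BL, below the others, at 1.83 RPKM. The 1 h EGF library stood apart for NR4A1 at 61.0 RPKM, RPL13A at 55.0, the p53 target BBC3 at 1.29, FOS at 23.6, EGR1 at 42.4 and, below the others, DUSP6 at 72.9 RPKM. The 5 h ANG library stood apart for the synthetase AARS at 65.1 RPKM. PLAT, CEACAM1 and BMP6 lost their call when single libraries were left out.

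The early difference depended on the line in 6610 genes. The largest such differences, AsPC-1 minus Panc-1 on the log2 scale, were all histones: HIST1H1B at -7.55, HIST1H1D at -7.37, HIST1H3H at -7.25, HIST1H2AL at -6.91, HIST1H2AJ at -6.78, HIST1H3J at -6.73, HIST1H2BO at -6.58, HIST1H3B at -6.54, HIST1H3A at -6.37 and HIST1H2BL at -6.36.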

How the results depend on the processing

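The 2297 genes called higher became 3481 with centred libraries, 1438 against mock alone and 1494 without both 5 h libraries, and the 375 called 2-fold higher became 565 on the deposited log2 scale and 590 with centred libraries. The ligand interaction went from 0 genes to 1 on the deposited log2 scale and 44 with no filter, and could not be fitted without either 24 h library. Leaving out 1 library at a time gave 4742 to 7368 calls (1647 to 2385 higher, 3079 to 4983 lower, 311 to 454 and 946 to 1514 2-fold higher and lower), 5861 to 7451 for the interaction with line (2420 to 2861 above 0, 3263 to 4590 below) and 0 to 483 for that with ligand. Of single genes, PLXNB2 turned to 0.01 and VIM to 4.3e-05 with centred libraries, EGR1 to -0.43 without 1 h of EGF (up to 0.64 without 24 h of EGF), and RNASE4 (0.04) to -0.03, -0.0025 and -0.42 without 5 h of ANG, 5 h of EGF and 24 h of EGF (up to 0.33 without mock). With centred libraries the list medians turned to 0.01 (fatty acid and p53 genes), 0.11 (ANG and partners), 0.02 (lysosome), 0.10 (epithelial adhesion), 4.3e-05 (mesenchymal), 0.12 (TGF-beta) and 0.13 (MYC network). Centring shifts every gene by the same amount, and the cause of the other changes was not tested. Within ligand, without mock and with ligand as a block, 5477 genes were called (2146 higher, 3331 lower). Samples could not be paired by replicate number, since each condition has 1 library. Depth is not a limit at the levels discussed, where 1 read in 2 kb is worth at most 0.0266 RPKM, except for genes near 1 RPKM.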
